A study of Mus musculus with 10 samples.

Results

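The simple epithelial keratins Krt7, Krt8, Krt18, Krt19 and Krt20 were followed, 5 of the 28808 genes in the tables, chosen by name and read by day after injury and by nephron segment. They are counted in cells of the mouse kidney cortex from animals aged 4 weeks, sequenced by Drop-seq, which captures the RNA of each cell on a barcoded bead and counts unique molecular identifiers (UMIs) at the 3′ end of transcripts. The groups are normal kidneys, as 1 control library, and injured kidneys at 6 times: 1 library each at days 1, 2 and 4, and 2 libraries each at days 7, 11 and 14. The labels give no kind of injury, genotype, strain, sex or animal, so whether the 2 libraries of a day come from different mice is unknown, and p-values measure only the spread between these libraries. By its title, the series concerns the return of developmental genes and mixed lineage genes in kidney cells after acute kidney injury.

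Keratins are the intermediate filament proteins of epithelia. They assemble as pairs of a type II chain (here Krt7 and Krt8) with a type I chain (here Krt18, Krt19 and Krt20), and the filaments are tied to desmosomes and give an epithelial sheet its mechanical strength. Krt8 and Krt18 are the pair of most simple epithelia, Krt7 and Krt19 are typical of ducts, and Krt20 is best known from the differentiated cells of the gut and the umbrella cells of the urothelium. In the kidney, keratins are typical of the collecting duct, and injured tubules are known to make more of them.

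The genes lie in the 2 keratin clusters of the mouse genome (GENCODE M21 on GRCm38, the build that the submitters' processing notes call mm10). Krt7 (chr15:101411043-101430313, plus strand), Krt8 (chr15:101996698-102004482, minus strand) and Krt18 (chr15:102028180-102032027, plus strand) are on chromosome 15, where Krt18 is the type I gene that sits apart from its own cluster, 23.7 kb from Krt8. Krt19 (chr11:100140810-100148665, minus strand) and Krt20 (chr11:99428403-99438150, minus strand) are in the type I cluster on chromosome 11. Krt7 overlaps Gm671 and Krt8 overlaps Gm36026 on the opposite strand, and the annotation names a pseudogene, Krt8-ps. Whether the counting used strand, and how it treated such copies, is not given in the sources used here, so the values of Krt7 and Krt8 may hold reads of these neighbours.

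The sequences just upstream of Krt7 and Krt20 are shown because these genes are the extremes of the data, 1 counted in the control kidney and the other not counted there at all. Each is the 250 bases before the RefSeq start (GRCm38.p6), 5′ to 3′ on the strand of the gene, with capitals marking matches on either strand to GGGCGG (the GC box) or TATAAA (the TATA box). The Krt7 stretch is chr15:101412153-101412402, plus strand, and the Krt20 stretch is chr11:99438154-99438403, minus strand. The Krt7 stretch lies inside the GENCODE span given above, so the RefSeq start used here is downstream of the GENCODE start of that gene.
Krt7: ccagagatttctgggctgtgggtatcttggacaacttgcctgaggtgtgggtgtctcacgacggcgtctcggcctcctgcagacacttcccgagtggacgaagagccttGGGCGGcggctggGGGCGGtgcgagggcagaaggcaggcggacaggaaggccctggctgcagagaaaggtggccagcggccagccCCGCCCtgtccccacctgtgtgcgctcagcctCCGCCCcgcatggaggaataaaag
Krt20: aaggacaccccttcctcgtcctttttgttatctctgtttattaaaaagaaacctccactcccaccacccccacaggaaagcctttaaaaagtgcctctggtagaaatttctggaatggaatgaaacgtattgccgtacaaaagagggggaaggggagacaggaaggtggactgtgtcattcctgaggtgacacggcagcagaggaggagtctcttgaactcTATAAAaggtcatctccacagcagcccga
Krt7 holds 4 matches to the GC box, which 32.7% of the 32851 promoters of the table hold, and none to the TATA box. The Krt20 stretch has 1 TATA box, with its first base 29 bases before the start, and no GC box. A TATA box is found in 12.4% of the promoters. No match to either, or to TGANTCA (AP-1, in 6.75% of the promoters), was found in the same windows of Krt8 and Krt18, and Krt19 was not analysed here. A match is a run of letters and not a measured binding site.

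Cells were assigned to segments by raw UMIs of marker genes, none of them a keratin. A class took a cell with at least 3 UMIs over at least 2 of its markers, and with at least 2 times the UMIs of every other class. Of 52797 cells kept, 41787 were tubule cells: proximal tubule, thick ascending limb, distal convoluted and connecting tubule, principal and intercalated cells of the collecting duct, cells with markers of several segments, and cells with general tubule markers but no segment. As a description of the gates, and no test of them since the same markers chose the cells, the summed markers of a segment stood between 10066 and 16295 CPM (UMIs of a gene per 1e6 UMIs of all genes in the same cells) within it, against 53.3 to 546 CPM in non-epithelial cells. The libraries held 7091848 to 31632205 UMIs. The median share of mitochondrial UMIs per cell was highest in the control (23.6%) and lowest in a day 7 library (3.64%). Proximal cells made up 69.1% of tubule cells in the control, 32.1% and 35.5% on day 7, and 79.8% and 78.6% on day 14. A level in all tubule cells thus mixes level and makeup, so each keratin is given in all tubule cells and then within segments. The marker split within a segment changed too. In the control 2349 of 3757 proximal cells had more UMIs of S3 (straight part) markers than of S1 and S2 (earlier part) markers. On day 7 they were 17 of 588 and 138 of 863, and on day 14 they were 3094 of 5142 and 2190 of 4591. S1 and S2 markers led in 906 control cells and in 342 and 377 on day 7, and the other proximal cells were ties. Fewer S3 cells and fewer S3 marker UMIs per cell cannot be told apart here. The part of this split in the proximal changes was not tested.

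Free RNA in the droplets puts some UMIs of any abundant transcript into every cell. The level in endothelial, stromal, myeloid and lymphoid cells, which are not typical sources of these keratins, is given as the background, and a segment's value at or below it was read as background. Tests are edgeR's quasi-likelihood test on UMIs summed per library, with Benjamini-Hochberg adjustment over all genes at 0.05. The control, days 1, 2 and 4 have 1 library each. The spread of the control is taken from the days with 2 libraries, and days 1, 2 and 4 are given as values with no test. The fit of a class leaves 3 residual degrees of freedom (libraries beyond the groups fitted), or 2 for distal cells and cells with no segment. The spread thus rests on few libraries, and edgeR steadies it by sharing spread across genes. The fitted log2 changes use edgeR's TMM factors, which centre the change of most genes near 0, so they are not the ratios of the CPM printed beside them. With library totals alone, an alternative added after the data were seen, the median log2 change of all genes in tubule cells on day 7 against the control was 0.82 in place of 0.04, and it was higher by 0.89 in proximal, 0.65 in thick limb, 0.24 in principal and 0.56 in intercalated cells. The share of called genes that were higher on day 7 went from 47.5% to 87.5% in tubule cells. In the same way it went from 49.0% to 88.2% in proximal, 47.0% to 88.5% in thick limb, 50.9% to 74.0% in principal and 50% to 93.0% in intercalated cells. Against day 7, the share called higher on day 11 or 14 was 49.5% to 61.7% over all classes with TMM factors and 13.2% to 37.0% with library totals. In the comparisons without day 7 it ran from 31.2% to 56.5%, and from 17.7% to 71.3% with library totals. A change is therefore relative to the scaling, and the value with library totals is given where it alters a call or moves a value widely.

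In all tubule cells, all 5 keratins were higher on day 7 than in the control and had fallen by day 11. On day 7 against the control 5 of 5 were called, all higher, where 34.5% of the 16353 genes tested were called in either direction and 16.4% were called higher. Krt20 passed the count filter, here and within segments, only through injured libraries where it was high. Its calls as higher thus partly follow from that filter, though the count of 5 in tubule cells was the same without it. By size the changes ran in the order Krt20, Krt19, Krt18, Krt8 and Krt7.

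Krt7, the type II keratin of ducts, stood at 134 CPM in the control, 336 on day 1, 207 on day 2, 189 on day 4, 429.9 and 474 on day 7, 123 and 116 on day 11, then 106 and 104 on day 14. Both day 7 libraries were above every other library, and days 11 and 14 lay below the control. The day 7 mean was 452 ± 31.2 CPM (SD, n = 2), a log2 change of 0.97 from the control with TMM factors (SE 0.21, adjusted p = 0.00478 by edgeR) and 1.76 with library totals.

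Krt8, the type II partner of Krt18, stood at 67.8 CPM in the control, 1186 on day 1, 519.9 on day 2, 518 on day 4, 1150.5 and 761 on day 7, 146 and 157 on day 11, then 108 and 114 on day 14. All 9 injured libraries were above the control, and the day 1 and first day 7 libraries were the highest. Its log2 change on day 7 was 3.02 (SE 0.29, adjusted p = 4.00e-05 by edgeR). It was still higher on day 11, by 1.16 (SE 0.26, adjusted p = 0.0154 by edgeR), a call lost without the second day 11 library (1.10).

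Krt18 stood at 31.8 CPM in the control, 242 on day 1, 186 on day 2, 197 on day 4, 604 and 442 on day 7, 63.3 and 49.6 on day 11, then 25.5 and 22.8 on day 14. Unlike Krt8, it was higher in both day 7 libraries than on day 1. The change on day 7 against the control was 3.25 (SE 0.28, adjusted p = 2.43e-05 by edgeR). On day 11 it was 0.83 (SE 0.25, adjusted p = 0.0446 by edgeR), a call that was lost without either library of day 11 or of day 14 and under several other settings, library totals among them (0.83, adjusted p = 0.0501 by edgeR), with changes from 0.55 to 0.98.

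Krt19, a short type I keratin of ducts and progenitor-like epithelia, stood at 1.65 CPM in the control, 31.3 on day 1, 58.6 on day 2, 43.9 on day 4, 138 and 190.4 on day 7, 9.41 and 5.56 on day 11, then 0.958 and 1.18 on day 14. It was near 0 in the control and on day 14 and peaked in both day 7 libraries. The day 7 change against the control was 5.85 (SE 0.41, adjusted p = 9.59e-06 by edgeR), from 46 UMIs in the control to 2693 over both day 7 libraries. On day 11 it was still higher, by 2.17 (SE 0.38, adjusted p = 0.00637 by edgeR).

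Krt20 had 0 UMIs in 5437 control tubule cells and stood at 22.7 CPM on day 1, 22.7 on day 2, 84.1 on day 4, 39.9 and 66.7 on day 7, 0.202 and 0.103 on day 11, then 0.144 and 0 on day 14. It was counted in every library from day 1 to day 7, highest in the day 4 library, and close to 0 in the other 5. Against a floor of 3 UMIs over the control, the CPM was at least 370-fold higher in the first day 7 library and at least 619-fold higher in the second (adjusted p = 1.28e-05 by edgeR). Only 3 UMIs were counted over both day 11 libraries and 3 over both day 14 libraries, against 906 on day 7. The CPM ratio of day 7 to day 11, UMIs pooled over the libraries of each day, was 384 (95% counting interval 131 to 1867).

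**Figure D1:**
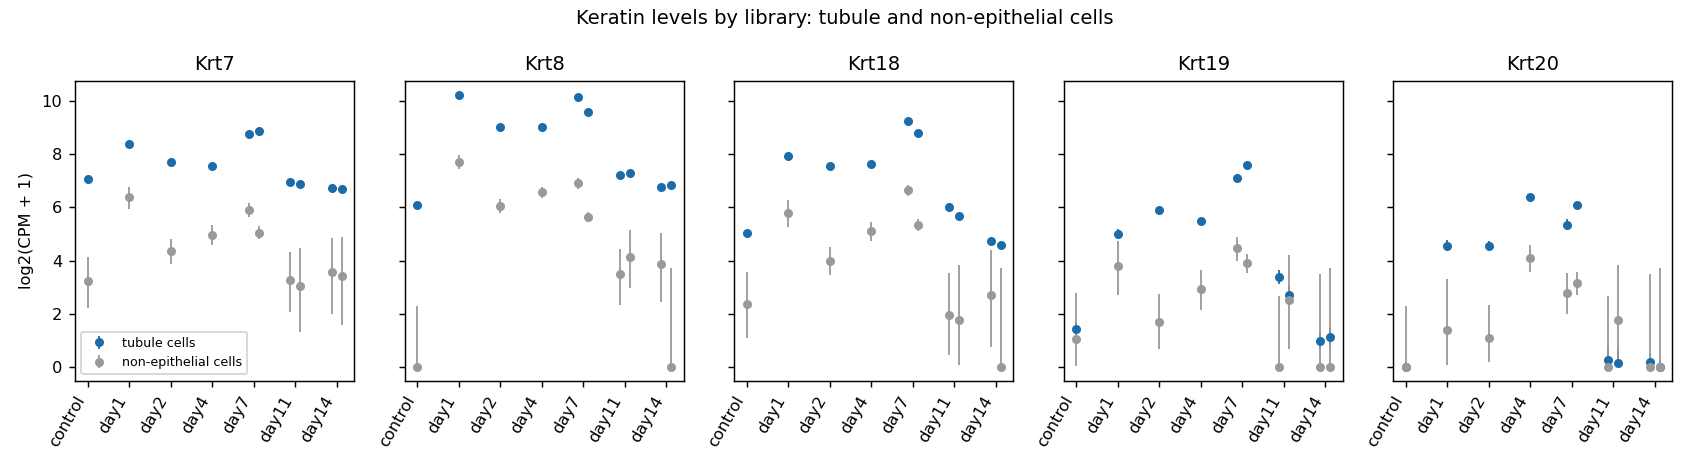
Level of each keratin on the y axis, as log2(CPM + 1), by library on the x axis, in tubule cells (blue) and in endothelial, stromal, myeloid and lymphoid cells (grey), with exact 95% Poisson intervals. Tubule levels of all 5 are highest between days 1 and 7, the grey points rise on the same days at lower values, and Krt20 is at 0 in the control.

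The fall from day 7 was called for all 5. On day 11 the log2 changes against day 7 were -1.14 for Krt7, -1.86 for Krt8, -2.42 for Krt18, -3.67 for Krt19 and -7.61 for Krt20, and 5 of 5 passed edgeR's test as lower, where 44.6% of all genes were called and 21.4% were called lower. On day 14 against day 7 the 5 changes ran from -1.25 (Krt7) to -8.50 (Krt20), again 5 of 5 lower against 46.4% called and 22% called lower. Against the control, 3 of 5 were called on day 11 (Krt8, Krt18 and Krt19, all higher), where 17.8% of all genes were called. That count was 1 without the second day 11 library.

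By day 14 no keratin passed edgeR's test against the control in all tubule cells, where 7.72% of all genes were called. The count was also 0 by DESeq2, and 1 (Krt8) at an unadjusted p under 0.05. Krt8 differed by 0.78 (SE 0.25, adjusted p = 0.0841 by edgeR). It passed without either library of day 7. Between days 11 and 14, Krt18 fell by 1.15 (SE 0.20, adjusted p = 0.00689 by edgeR) and Krt19 by 2.74 (SE 0.34, adjusted p = 0.00201 by edgeR), 2 of 5 against 12% of all genes called. The call of Krt18 was lost, and the count was 1, without the first day 11 library or the second day 14 library.

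Myeloid, urothelial and mesothelial markers moved with the keratins in the tubule gate. Over 11 myeloid markers the summed level in tubule cells was 9.85 CPM in the control and 257 and 92.5 on day 7, and all 11 were counted in both day 7 libraries. Over 5 urothelial markers it was 0.970 CPM in the control, 13.1 and 9.37 on day 7, and 0.575 and 0.481 on day 14, with 0 of the 5 at 0 on day 7. Over 4 mesothelial markers it was 0.323 CPM in the control, 1.75 on day 1, 2.42 on day 2, 7.06 on day 4, 4.65 and 3.12 on day 7, 1.92 and 0.824 on day 11, then 0.0958 and 0.107 on day 14, with 2 of the 4 at 0 in the first day 7 library and 1 in the second. The proximal sum of these 4 was 0.185 CPM in the control, 8.70 on day 4 and 7.39 and 3.27 on day 7. The part of these markers in the keratin changes was not tested. Cells gated as urothelial numbered 3, 2, 5, 3, 14 and 8 in the libraries of day 1, day 2, day 4, day 7 (both) and the first of day 11, and 0 in the others, and they were not part of the tubule cells.

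Within proximal tubule cells, the main reabsorbing cells of the nephron, 4 of 5 keratins were called higher on day 7 than in the control, against 39.2% of 15071 genes called and 19.2% called higher. Krt8 was present without injury, Krt18 and Krt20 were at or near 0 without it, and Krt7 and Krt19 stayed near the background in most libraries.

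Proximal Krt8 stood at 49.6 CPM in the control, 967 on day 1, 295 on day 2, 399 on day 4, 611 and 576 on day 7, 124 and 137 on day 11, then 112 and 118 on day 14. Every injured library was above the control, and the same cells exceeded the non-epithelial background (0 CPM in the control, 209 on day 1, 119 and 49.2 on day 7) in every library. The log2 change against the control was 2.68 on day 7 (SE 0.24, adjusted p = 7.09e-06 by edgeR) and 1.27 on day 11 (SE 0.22, adjusted p = 0.00304 by edgeR). On day 14 it was still 1.06 (SE 0.22, adjusted p = 0.0142 by edgeR), which made Krt8 the 1 keratin of 5 called there, against 8.84% of all genes. On day 11 Krt8 and Krt18 were called, 2 of 5 against 20.5% of genes. Without either of the day 14 libraries the day 14 call of Krt8 was lost, at 1.09 without the first and 1.04 without the second.

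Proximal Krt18 stood at 1.60 CPM in the control, 108 on day 1, 59.4 on day 2, 83.7 on day 4, 129 and 128 on day 7, 8.89 and 5.79 on day 11, then 3.43 and 3.91 on day 14. Background levels on the same days were 4.19, 54.8, 15.005, 33.3, 99.0, 39.7, 2.90, 2.39, 5.50 and 0 CPM. The proximal level was thus below the background in the control and close to it in the first day 7 library, and above it in the other 4 libraries from day 1 to day 7. By edgeR the change on day 7 was 5.42 with TMM factors (SE 0.35, adjusted p = 1.31e-06) and 6.31 with library totals, from 26 UMIs in the control to 683 over both day 7 libraries. On day 11 it was 2.07 (SE 0.35, adjusted p = 0.00266 by edgeR), and on day 14 it was 1.04 and did not pass (adjusted p = 0.0839 by edgeR).

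Proximal Krt20 had 0 UMIs in 3757 control cells and stood at 40.5 CPM on day 1, 33.9 on day 2, 113 on day 4, 99.0 and 165 on day 7, 0.312 and 0.141 on day 11, then 0.127 and 0 on day 14. The background from day 1 to day 7 was 1.61, 1.11, 16.1, 5.95 and 7.89 CPM, lower in each of these 5 libraries. Against the same floor the CPM was at least 536-fold higher in the first day 7 library and at least 895-fold higher in the second (adjusted p = 1.56e-06 by edgeR). Proximal cells gave 82.7%, 98.4%, 94.5%, 74.4% and 90.6% of all tubule Krt20 UMIs in the libraries from day 1 to day 7. Urothelial markers summed to 4.37, 4.02, 1.61, 2.22 and 4.02 CPM in the same proximal cells.

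Krt7 and Krt19 were low in proximal cells. Krt7 ran from 4.68 CPM in the first day 11 library to 52.1 on day 1, below the background of 7.18 to 82.2 CPM in 8 of 10 libraries, and was not called on day 7 (0.69, SE 0.43, adjusted p = 0.224 by edgeR). With library totals that change was called (1.59, adjusted p = 0.0124 by edgeR). Krt19 was at 0.185 CPM in the control and at 18.5 and 10.6 on day 7, where the background was 21.1 and 13.98. Its change was called (5.23, SE 0.80, adjusted p = 0.000345 by edgeR), but the level itself did not exceed the background on that day.

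The fall in proximal cells was called for 4 of 5 keratins on day 11 against day 7 (40.8% of genes called) and for 5 of 5 on day 14 against day 7 (42.3% of genes called). Proximal Krt7 and Krt19 lay below the background in both day 7 libraries, so their falls are read as background. The changes to day 14 were -1.07 for Krt7, -1.61 for Krt8, -4.37 for Krt18, -6.17 for Krt19 and -9.98 for Krt20. That of Krt7 was -0.50 and was not called without the first day 7 library, and was lost too without either day 14 library. Between days 11 and 14 only Krt18 was called (-1.02, SE 0.25, adjusted p = 0.0274 by edgeR), 1 of 5 against 9.93% of genes, and without the first day 11 library it was -0.67 and was not called. Leaving out either day 14 library lost that call as well.

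Thick ascending limb cells, the salt-reabsorbing cells of the loop of Henle, had Krt7 without injury. Krt7 stood there at 258 CPM in the control, 399.8 on day 1, 421 on day 2, 548 on day 4, 364 and 582 on day 7, 296 and 314 on day 11, then 309 and 283 on day 14. All 9 injured libraries were above the control. The day 7 change of 0.23 (SE 0.25, adjusted p = 0.558 by edgeR) did not pass with TMM factors, but with library totals it was 0.89 and was called (adjusted p = 0.0122 by edgeR).

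The other 4 keratins were called higher in the thick limb on day 7, against 22% of 11970 genes called and 10.3% called higher. Krt8 stood at 54.0 CPM in the control and 724 and 572 on day 7 (log2 change 2.92, SE 0.24, adjusted p = 4.62e-07 by edgeR). Krt18 rose from 5.93 to 177 and 116 CPM (3.93, SE 0.41, adjusted p = 3.98e-06 by edgeR), above a background of 99.0 and 39.7. Krt19 was at 4.77 CPM in the control, 9.19 on day 1, 15.1 on day 2, 69.2 on day 4 and 139 and 249.5 on day 7 (4.71, SE 0.43, adjusted p = 1.20e-06 by edgeR). Krt19 in the thick limb was thus low up to day 2 and highest on day 7. Krt20 was at 16.4 and 0.998 CPM on day 7, 14 and 2 UMIs, above the background in the first library and below it in the second. These UMIs lay in 3 of 243 and 2 of 381 thick limb cells, so a few cells carry the level. Its call (adjusted p = 0.0369 by edgeR) was lost without the first day 7 library (adjusted p = 0.277 by edgeR), with a gate of 5 UMIs (0.164), with mitochondrial shares up to 25% (0.0780) and with DESeq2 (0.550).

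After day 7 the levels in the thick limb fell. Krt8 was at 124 and 119.6 CPM on day 11 and 61.9 and 55.2 on day 14, and Krt18 at 50.3 and 25.6, then 2.76 and 3.75. On day 11, 2 of 5 (Krt8 by 1.09 and Krt18 by 2.63) were still called against the control, where 11% of genes were called. On day 14 none was called by edgeR or DESeq2, 1 (Krt19) had an unadjusted p under 0.05, and 1.54% of all genes were called. Krt8, Krt18 and Krt19 were called lower on day 14 than on day 7 (3 of 5, 22.9% of genes called), while Krt7 differed by -0.06 (SE 0.20). With library totals 5 of 5 were called lower on day 14 than on day 7, Krt7 by -0.69, and 5 of 5 on day 11 than on day 7. On day 11 against day 7, Krt8 (-1.83), Krt18 (-1.31) and Krt19 (-4.57) were called lower, against 28.9% of genes. From day 11 to day 14, Krt8 (-1.01) and Krt18 (-3.51) were called, 2 of 5 against 6.79% of genes, and Krt8 was lost without the second day 14 library.

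Distal convoluted and connecting tubule cells were too few on days 2 and 7 (at most 12 cells) for a sum, so they have no day 7 test. Krt7 stood there at 101 CPM in the control and between 132 and 156 on days 11 and 14. Krt8 was at 56.9 CPM in the control, 111 and 110.4 on day 11 (0.78, SE 0.23, adjusted p = 0.0264 by edgeR, 1 of 3 tested, 13.3% of genes called) and 71.4 and 74.9 on day 14. That call was lost without the first day 11 library (0.73), with DESeq2 (0.85) and with cells of up to 25% mitochondrial UMIs (0.41). Krt18 was the exception in direction: 37 UMIs in the control, 16.6 CPM, against 1 and 3 UMIs on day 14, 1.02 and 3.68 CPM (-2.91, SE 0.69, adjusted p = 0.0112 by edgeR, 6.73% of genes called). This call too was lost without the first day 14 library (-2.23) and with no cells set aside (-1.10), and DESeq2 gave Krt18 no adjusted p. Against day 11, Krt18 was called lower on day 14 (-3.35, SE 0.71, adjusted p = 0.00247 by edgeR), 1 of 3 against 9.02% of genes.

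Principal cells, the water-reabsorbing cells of the collecting duct, had the highest mean level over libraries of Krt7, Krt8, Krt18 and Krt19 among the 5 named segments. Krt7 stood at 771 CPM in the control and between 675 and 1156 in the injured libraries, and its day 7 change was 0.14 (SE 0.25, adjusted p = 0.792 by edgeR). Krt8 was at 278 CPM in the control, 2090.3 on day 1, 1296 on day 2, 1116 on day 4, 1976 and 1113 on day 7, 349 and 517 on day 11, then 201 and 191 on day 14. Its day 7 change was 2.23 (SE 0.32, adjusted p = 5.85e-05 by edgeR). Both day 14 libraries were below the control, by -0.37 (SE 0.30), which did not pass.

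Krt18 in principal cells was at 382 CPM in the control, 909 on day 1, 931 on day 2, 1122 on day 4, 1463 and 1117 on day 7, 583 and 752 on day 11, then 376 and 295 on day 14. It was higher on day 7 by 1.52 (SE 0.27, adjusted p = 0.000632 by edgeR), the smallest of its day 7 changes among the 4 segments tested. Principal Krt19 stood at 5.61 CPM in the control, 152 on day 1, 343 on day 2, 253 on day 4, 268 and 428 on day 7, 33.1 and 60.7 on day 11, then 12.8 and 10.3 on day 14. From 9 UMIs in the control it rose by 5.71 (SE 0.49, adjusted p = 4.10e-08 by edgeR) and on day 11 was still higher by 3.01 (SE 0.55, adjusted p = 0.00466 by edgeR), the 1 keratin called there against 4.77% of genes. Without the second day 11 library it was 2.57 and was not called. In all, 3 of 4 tested keratins were called in principal cells on day 7, against 8.91% of 11014 genes. On day 14 none of the 4 was called against the control by edgeR or DESeq2, none had an unadjusted p under 0.05, and 1.87% of all genes were called. Krt8, Krt18 and Krt19 were called lower on day 11 than on day 7 (3 of 4, 13.4% of genes), on day 14 than on day 7 (3 of 4, 16% of genes) and on day 14 than on day 11 (3 of 4, 6.05% of genes). The call of Krt18 on day 11 against day 7 (-0.72, adjusted p = 0.0266 by edgeR) was lost without the first day 7 library (-0.52), the first (-0.55) or second (-0.88) day 11 library, with only those 2 groups in the fit (-0.70) and with DESeq2 (-0.68), with adjusted p from 0.0509 to 0.209. The day 14 to day 11 count was 0 without the second day 11 or the second day 14 library, and 1 without the first day 14 library. Krt20 was too sparse to test: it had 1 and 9 UMIs on day 7, 0.936 and 3.49 CPM, below the background.

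Intercalated cells, the acid-base cells of the collecting duct, numbered 48 to 136 per library, so their values are less certain. Krt7 stood at 327 CPM in the control and 753 and 584 on day 7 (0.49, SE 0.31, adjusted p = 0.427 by edgeR), a change that was called with library totals (1.07, adjusted p = 0.0299 by edgeR). Krt8 was at 88.8 CPM in the control, 1232 on day 1, 750.4 on day 2, 1100.3 on day 4, 2154 and 773 on day 7, 394 and 269 on day 11, then 98.9 and 189 on day 14. The 2 day 7 libraries differed widely, and both were above the control, day 11 and day 14. Krt8 (3.47, SE 0.49), Krt18 (2.60, SE 0.43) and Krt19 (5.44, SE 0.91) were called higher on day 7 by edgeR, with adjusted p of 2.35e-05, 0.000234 and 0.000235, 3 of 4 tested against 5.66% of 5334 genes. DESeq2 called the first 2 of them and not Krt19. In these cells Krt19 had 1 UMI in the control, below the floor of 3 counts, against 20 and 45 on day 7. It had 15 and 2 on day 11, so the size of its changes against the control is uncertain. On day 11 all 3 were still called against the control (Krt8 by 1.69, Krt18 by 1.57 and Krt19 by 4.16), 3 of 4 against 4.39% of genes, but none of them without the first day 11 library. Between days 7 and 11, Krt8 (-1.78) and Krt18 (-1.03) were called, 2 of 4 against 14.2% of genes, with 0 left without the first day 7 library and 1 without the second day 11 library. All 3 were called lower on day 14 than on day 7, 3 of 4 against 10.2% of genes, and Krt18 was called lower on day 14 than on day 11 (-1.66), 1 of 4 against 1.74% of genes. That last call was lost without the first day 11 or the second day 14 library. On day 14 none of the 4 was called against the control by edgeR or DESeq2, none had an unadjusted p under 0.05, and 0.319% of genes were called.

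Tubule cells that reached no segment's minimum were a sizeable class only after injury: 19 cells in the control, 385 and 348 on day 7 and 8 and 5 on day 14. They can hold segment marker UMIs below that minimum. They were also shallower than proximal cells on day 7, with medians of 1070 and 1529 against 1663 and 2421 UMIs. On day 7 they had Krt8 at 1177 and 692 CPM, Krt18 at 573 and 462, Krt19 at 161 and 213, Krt7 at 344 and 199.6 and Krt20 at 51.4 and 54.7. All 5 were thus above the background in this class. The comparison of day 11 with day 7 is the one with 2 libraries on both days, and in it Krt8 fell by 1.19 (SE 0.31, adjusted p = 0.0273 by edgeR) and Krt20 from 77 UMIs to 0 (each day 7 library at least 4.30-fold higher, adjusted p = 0.00975 by edgeR), 2 of 5 against 4.41% of genes. DESeq2 did not call Krt8 and gave Krt20 no adjusted p. Leaving out 1 library left 0 or 1 of the 2 calls.

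**Figure D2:**
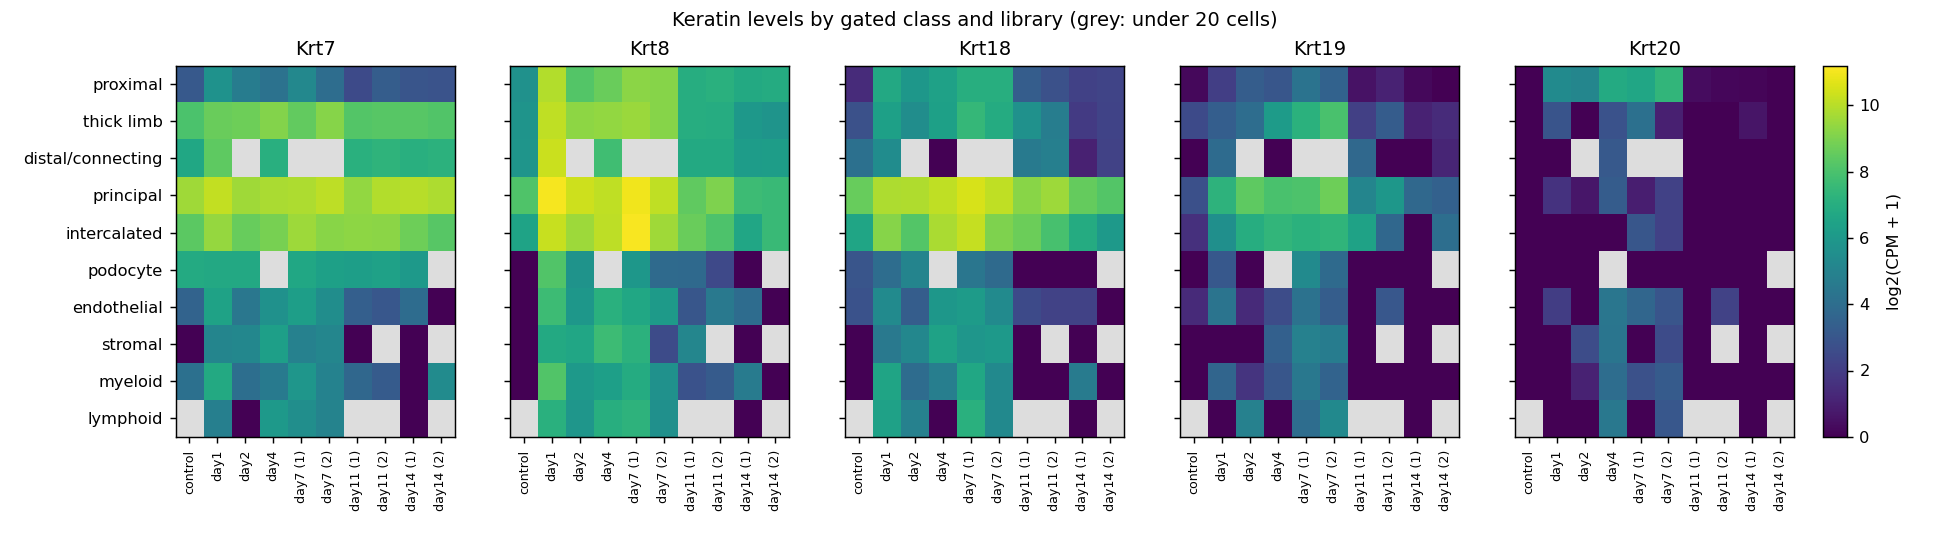
Level of each keratin as log2(CPM + 1), on a colour scale, by gated class (rows) and library (columns), with classes of under 20 cells in a library in grey. Krt7 is high in the thick limb and collecting duct in every library, Krt8 is high from day 1 to day 7 in the segments shown, where distal cells are grey on days 2 and 7, and Krt20 is high in proximal cells only between days 1 and 7, up to 165 CPM.

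Whether segments differed in their response was tested directly, as the interaction of segment and group with the library as a block. Krt18 rose more in proximal than in thick limb cells on day 7 against the control, by a difference of -1.51 (thick limb minus proximal, SE 0.43, adjusted p = 0.00454 by edgeR), 1 of 5 against 23.2% of genes called. Without the second day 7 library this was -1.17 and was not called, while Krt7, at -0.27 and not called with all libraries, was called at -1.48 (adjusted p = 0.000756 by edgeR). The difference between principal and proximal cells was larger, -3.96 (SE 0.30, adjusted p = 5.46e-26 by edgeR). The interactions use the same few libraries, with 1 control, and a spread shared across genes. The size of their p-values is therefore no measure of replication. Proximal Krt18 lay below the background in the control, which is 1 library, and near it in the first day 7 library. The part of free RNA in these Krt18 differences was not tested. Krt8 rose less in principal than in proximal cells by -0.55 (SE 0.21, adjusted p = 0.0405 by edgeR), so 2 of 5 were called there against 21.7% of genes. Krt20, with no UMI in these control cells, had no usable estimate in either pair (SE 13086 and 17175) and counts among those not called. That Krt8 call was lost without the second day 7 library (-0.18) and without the filter on low counts (-0.52), while it was -0.95 without the first day 7 library and -1.18 with library totals. Krt7, at -0.45 and not called in principal against proximal cells, was called at -1.37 without the second day 7 library (adjusted p = 0.000619 by edgeR) and at -1.08 with library totals.

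The return from day 7 to day 14 also differed. Krt8 fell further in thick limb than in proximal cells by -1.29 (SE 0.18, adjusted p = 2.12e-09 by edgeR) and further in principal than in proximal cells by -0.90 (SE 0.17, adjusted p = 7.91e-06 by edgeR). The principal difference was -0.52 without the first day 7 library (adjusted p = 0.0433 by edgeR), -1.27 without the second and -0.53 with library totals. Krt7 fell in proximal cells relative to thick limb cells, a difference of 0.76 (SE 0.27, adjusted p = 0.0284 by edgeR), and relative to principal cells, 1.27 (SE 0.25, adjusted p = 1.85e-05 by edgeR). Without the first day 7 library these became 0.02 and 0.69 and were not called, and without the second they were 1.98 and 2.19. Krt19 in principal against proximal cells was 1.37 and not called, but was 2.40 and called without the second day 7 library (adjusted p = 0.0173 by edgeR). Krt20 in thick limb against proximal cells was called without the first day 7 library and not with all libraries (adjusted p = 0.0182 and 0.103 by edgeR). Krt18 fell less in principal than in proximal cells, by 2.85 (SE 0.22, adjusted p = 1.09e-26 by edgeR). Proximal Krt7 and Krt19 lay below the background on day 7, and the part of the background in their differences was not tested. The counts were 2 of 5 for the thick limb against 19.7% of genes, and 3 of 5 for principal cells against 18.9%.

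**Figure D3:**
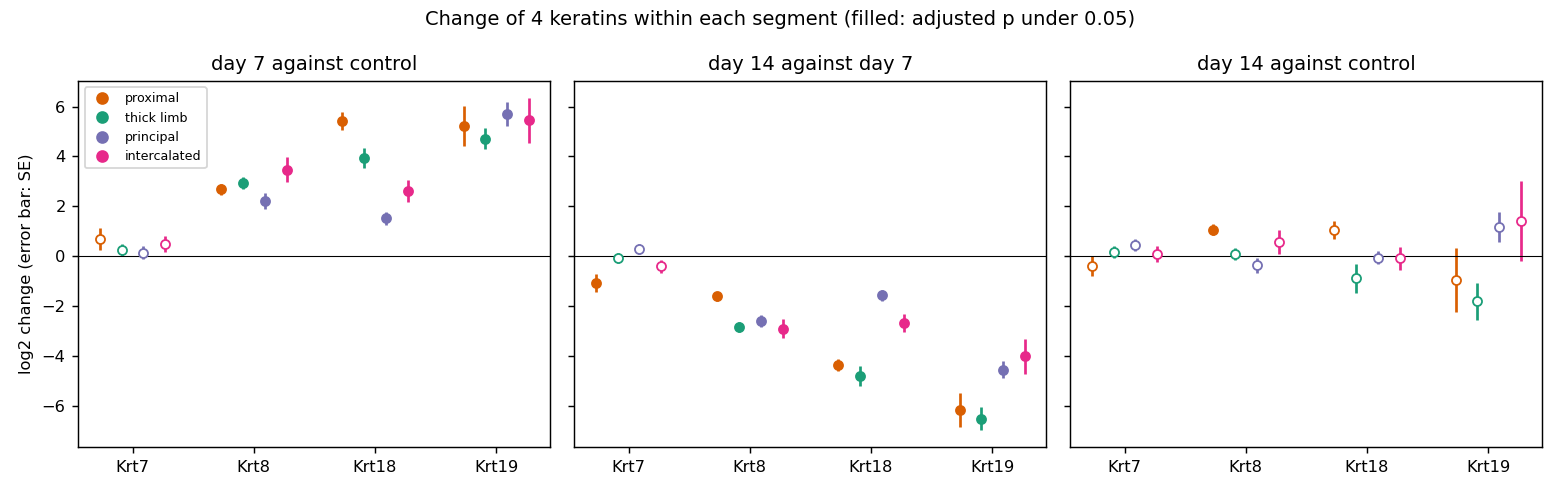
Log2 change with its SE on the y axis for Krt7, Krt8, Krt18 and Krt19 in 4 segments, for 3 comparisons, with filled points where the adjusted p of edgeR's test is under 0.05. Changes are with TMM factors. Krt7 has no filled point on day 7 against the control (with library totals it was called in proximal, thick limb and intercalated cells), Krt18 runs from 1.52 in principal to 5.42 in proximal cells, and on day 14 against the control only proximal Krt8 is filled.

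Keratin filaments need both a type II and a type I chain, and the ratio of Krt18 to Krt8 transcripts was not the same in all segments. In proximal cells Krt18 made up 3.13% of the Krt8 and Krt18 UMIs in the control (exact 95% interval 2.05% to 4.55%, counting error only). It was 10.05% on day 1, 16.8% on day 2, 17.4% on day 4, 17.5% and 18.2% on day 7, 6.70% and 4.07% on day 11, then 2.98% and 3.21% on day 14. The proximal share thus lay above the control in the 5 libraries from day 1 to day 7 and within the control's interval in 3 of the other 4. In principal cells the share moved the other way: 57.9% in the control, 30.3% on day 1, 41.8% on day 2, 50.1% on day 4, 42.5% and 50.1% on day 7, 62.6% and 59.3% on day 11, then 65.1% and 60.7% on day 14. Thick limb cells were at 9.89% in the control, 6.81% on day 1, 19.6% and 16.9% on day 7, 28.8% and 17.6% on day 11, then 4.27% and 6.36% on day 14. In non-epithelial cells the share was 20.7% on day 1, 18.6% on day 2, 26.2% on day 4 and 45.4% and 44.7% on day 7, above the proximal share in each of these libraries. In the first day 7 library proximal Krt18 (129 CPM) lay near the background (99.0 CPM) while proximal Krt8 (611 CPM) lay well above it (119 CPM), and the part of free RNA in the proximal share was not tested. These shares are descriptions and were not tested.

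**Figure D4:**
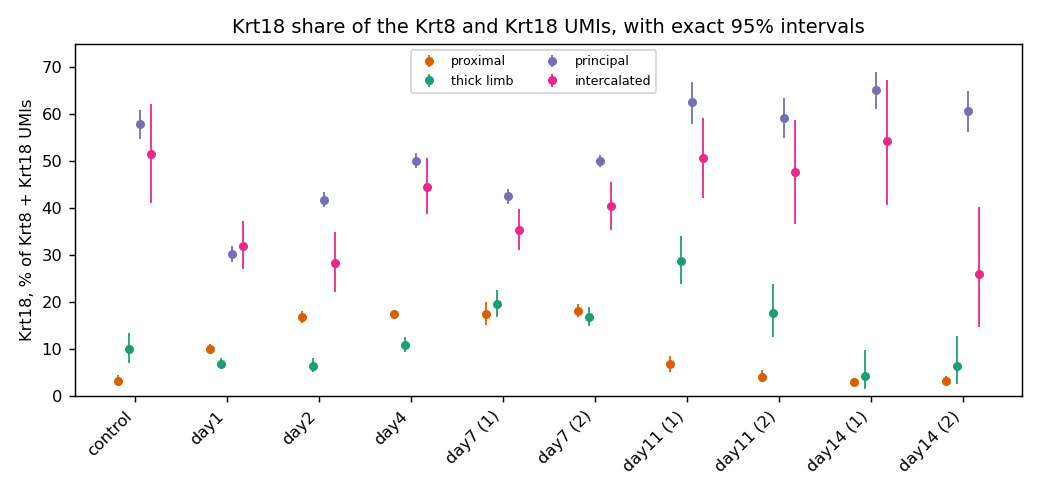
Krt18 as a percentage of the Krt8 and Krt18 UMIs (y axis) by library (x axis) in 4 segments, with exact 95% intervals. The proximal share is at 3.13% in the control and up to 18.2% on day 7, and the principal share is lowest on day 1, at 30.3%.

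Across libraries the keratins had different orders of segments. A mean is over the libraries with at least 20 cells of the class, which is all 10 for proximal, thick limb, principal, intercalated, endothelial and myeloid cells, and fewer for distal (7 libraries, none of day 2 or day 7), podocyte, stromal and lymphoid cells, so their places compare different days. Cells with no segment or with markers of several were not placed. By mean log2(CPM + 1), Krt7 was highest in principal cells (9.82), then intercalated (8.97), thick limb (8.51), distal (7.25) and podocyte (6.52) cells, with proximal cells (3.86) between endothelial and lymphoid cells. Principal cells exceeded intercalated cells in 10 of 10 libraries (mean difference 0.85, adjusted p = 0.0220, exact sign-flip permutation test, two-sided, adjusted over the 45 neighbouring pairs of all 5 keratins). Krt8 was highest in principal (9.34) and intercalated (8.80) cells. Principal cells were the higher in 8 of 10 libraries (mean difference 0.54), which did not pass (exact permutation adjusted p = 0.143). Intercalated exceeded thick limb cells (7.89) in 10 of 10 libraries (0.91, exact permutation adjusted p = 0.0220), while thick limb and proximal cells (7.86) did not differ beyond their spread. For Krt18, principal (9.46) exceeded intercalated cells (8.26) and these exceeded thick limb cells (4.99), each in 10 of 10 libraries (exact permutation adjusted p = 0.0220 for both), and thick limb and proximal cells (4.50) did not differ beyond their spread. Krt19 ran from principal (6.15) through intercalated (5.01) to thick limb cells (3.89), and Krt20 from proximal (3.21) to endothelial cells (1.53), with no neighbouring pair of either past the threshold. With 10 libraries the smallest unadjusted p is 0.00195. The order, and so the pairs tested, came from the same libraries, which are of different days. Each p thus describes how steady a difference was over them and is no separate evidence for the order.

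The same rise can be read as the share of cells with a UMI. At equal depth this share depends largely on the CPM given above, so it is no separate evidence of a rise. To remove differences in depth, each cell was thinned to 1000 UMIs and shallower cells were left out. Of 3582 control proximal cells, 4.80% then had a Krt8 UMI, against 40.3% and 34.9% on day 7 (of 457 and 768 cells) and 9.65% and 10.6% on day 14, while the non-epithelial share on day 7 was 11.6% and 3.98%. Before thinning the proximal shares were 14.9%, 53.7%, 58.6%, 21.6% and 22.8%. Krt18 was found in 0.140% of thinned control proximal cells and 10.5% and 8.98% on day 7, where the non-epithelial share was 9.12% and 3.07%. In the first day 7 library the proximal Krt18 share therefore lay within counting error of the background (interval 7.85% to 13.7% against 7.23% to 11.3%). The median depth before thinning was 1663 and 2421 UMIs in proximal and 1225 and 1555 in non-epithelial cells of day 7.

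Krt20 was counted in a minority of proximal cells even at its peak. At this depth a cell that makes a scarce transcript can show no UMI of it, so this is not the share of cells that make Krt20. The thinned share was 0 of 3582 cells in the control, which allows up to 0.0838%, then 2.27% on day 1, 1.88% on day 2, 6.05% on day 4 and 5.03% and 10.5% on day 7. The non-epithelial shares on these days were 0.372%, 0.175%, 1.54%, 0.740% and 0.795%. On days 11 and 14 at most 1 proximal cell per library had a Krt20 UMI after thinning. Unthinned, 9.52% and 24.6% of proximal cells had one on day 7.

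UMIs of more of the keratins were found per droplet from day 1 to day 7, in tubule and in non-epithelial droplets. At 1000 UMIs per cell, 86.1% of control tubule cells had no UMI of any of the 5, against 33.1% on day 1, 58.6% on day 2, 52.7% on day 4, 32.6% and 36.3% on day 7, 81.5% and 81.3% on day 11, then 84.0% and 82.6% on day 14. Cells with UMIs of 3 or more of the 5 made up 0.134% in the control, 11.9% and 10.1% on day 7, and 0.186% on both day 14 libraries. Makeup and free RNA moved on the same days: principal cells made up 4.73% of tubule cells in the control and 21.04% and 22.03% on day 7. Non-epithelial cells had no keratin UMI in 98.6% in the control, 70.6% on day 1 and 74.97% and 88.9% on day 7, and 3 or more of the 5 in 0.493% and 0.114% on day 7. Within proximal cells 94.2% had none in the control, against 50.8% and 54.2% on day 7, and 0 of 3582 and then 0.656% and 1.43% had 3 or more. The parts of makeup and of free RNA in these shares were not tested. In thinned proximal cells, Krt18 was found in 15.8% and 14.2% of cells with a Krt8 UMI on day 7, against 6.96% and 6.20% of cells without one. Proximal cells with a Krt20 UMI had a Krt8 UMI in 52.2% and 55.6% on day 7, against 39.6% and 32.5% of those without. Cells are not replicates, and these shares were not tested.

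Havcr1 encodes KIM-1, a receptor of injured proximal tubule cells, and its UMIs gave a second division of the tubule cells. It stood at 1.40 CPM in control tubule cells, 1146 on day 1, 187 on day 2, 1139 on day 4, 1011 and 537 on day 7, and at most 5.87 after that. Tubule cells with a Havcr1 UMI numbered 35 in the control, 614 and 674 on day 7, and 27 to 53 on days 11 and 14. Having a Havcr1 UMI depends on depth and on segment, so a level in these cells also reflects that they are mostly proximal: proximal cells gave 3763 of 4560 and 5250 of 5840 Havcr1 UMIs on day 7.

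Krt20 was the keratin found with Havcr1. It stood at 35.7, 106, 132, 107 and 172 CPM in Havcr1-positive cells from day 1 to day 7, and at 8.24, 3.26, 12.7, 3.09 and 7.46 CPM in Havcr1-negative cells of the same libraries. It was higher with Havcr1 in all 5 of these libraries, and at or near 0 in both kinds of cell in the other 5, where 3 UMIs in the Havcr1-positive cells would be 5.35 to 46.8 CPM. The mean difference over all 10 libraries, 1.84 on the log2(CPM + 1) scale, is given with no test, since only 5 of them had the depth and counts to differ. In thinned proximal cells, Havcr1 was found in 51.6% of those with a Krt20 UMI on day 2, 71.2% on day 4 and 87.0% and 69.1% on day 7, against 4.88%, 40.9%, 63.8% and 42.5% of those without. On day 1 the shares were 57.1% and 55.6%.

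Krt7 ran the other way. It was lower in Havcr1-positive cells in 10 of 10 libraries, by -2.45 ± 1.28 (SD, n = 10, adjusted p = 0.00977 by an exact sign-flip permutation test over libraries, two-sided), and on day 7 it was at 163 and 101 CPM with Havcr1 against 577 and 683 without. Krt19 could be compared in the 5 libraries from day 1 to day 7, where it was at 15.4, 9.75, 28.1, 53.1 and 60.1 CPM with Havcr1 and at 48.9, 69.99, 67.4, 184 and 263 without, lower in each. In the other 5 libraries the Havcr1-positive cells held 0 to 2 Krt19 UMIs, and a floor of 3 UMIs there (5.35 to 46.8 CPM) lay above the level in the other cells (0.976 to 9.33 CPM). The direction in those 5 was thus not detectable at this depth, and the mean difference over all 10, -1.50, is given with no test. With thinned cells the differences of Krt7 and Krt19 were -1.98 and -1.76, but only 5 libraries then had 20 cells of both kinds, and 5 libraries cannot reach p under 0.0625. Krt18 was lower in 9 of 10 by -1.22 ± 1.62 (SD, n = 10, exact permutation adjusted p = 0.0618). Krt8 was higher with Havcr1 in 5 of 10 libraries, by 0.13 ± 0.77 (SD, n = 10, exact permutation adjusted p = 0.666). Among cells without a Havcr1 UMI edgeR called Krt7 (by 1.42), Krt8 (3.16), Krt18 (3.59) and Krt19 (6.26) higher on day 7 relative to the control. Krt20 was called too, but its 3.09 and 7.46 CPM in these cells lay below the non-epithelial background of 5.95 and 7.89 CPM and are read as background. This fit is an alternative added after the data were seen. Of the 15785 genes in that fit 16.7% were called higher. Principal cells, where Krt7 was highest, made up 4.73% of all tubule cells in the control and 21.04% and 22.03% on day 7. Within proximal, thick limb, principal and intercalated cells, Krt7 was not called on day 7 against the control with TMM factors. With library totals it was called in proximal, thick limb and intercalated cells. The part of makeup in the changes of cells without a Havcr1 UMI was not tested.

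**Figure D5:**
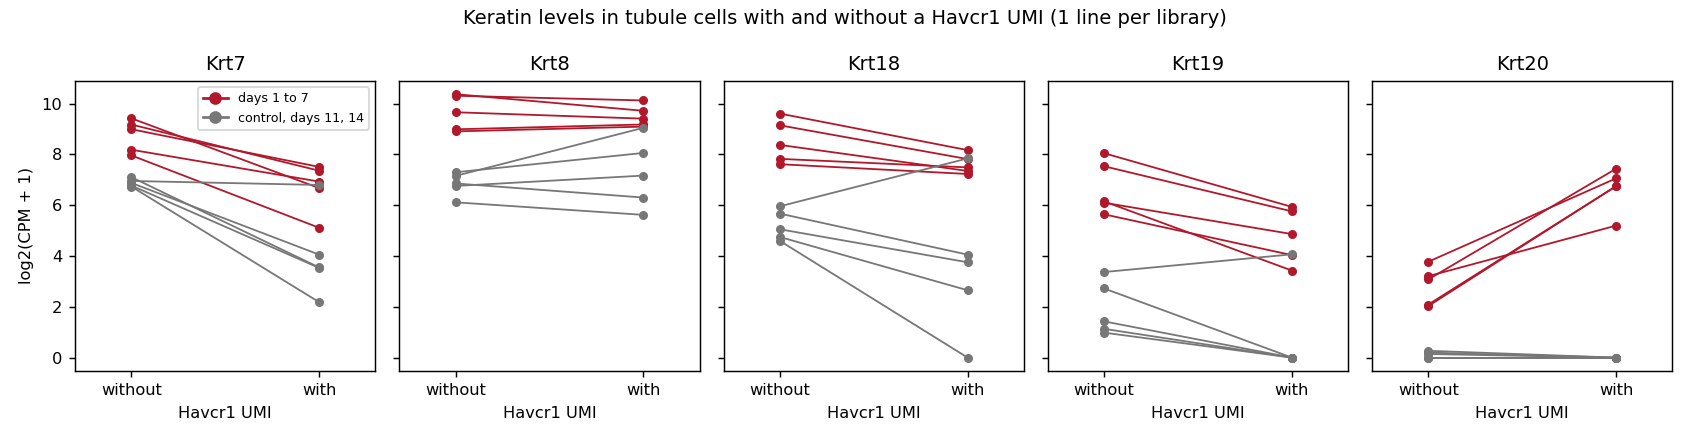
Keratin level as log2(CPM + 1) on the y axis in tubule cells without and with a Havcr1 UMI, 1 line per library, red for days 1 to 7 and grey for the control and days 11 and 14. The 5 red lines rise for Krt20, all 10 lines fall for Krt7, and the Krt8 lines stay level or cross.

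The partners of keratin filaments were read from lists chosen with earlier results of these data known, in tubule cells on day 7 relative to the control. Over all 16353 genes the median of the log2 changes was 0.04, and 34.5% were called, 16.4% higher. Counts are with TMM factors, and those with library totals and by DESeq2 follow. Of 20 other keratins, 9 had enough counts to test, and 4 rose, 0 fell and 5 did not pass, against 5, 0 and 4 with library totals. The count filter keeps a gene that passes it in 1 library, so a scarce keratin can enter through the libraries where it is high. The counts and the median of this list thus partly follow from the filter and are descriptions. DESeq2 called 1 of the 9 (Krt23, chosen for naming after its value was seen) and neither Krt17 nor Krt12. All were scarce: Krt17, a keratin of injured skin and basal cells, was at 0 CPM in the control and 1.99 and 0.459 on day 7, at least 18.5-fold and 4.26-fold higher (adjusted p = 0.0251 by edgeR). Krt12, known from the cornea, had 1 UMI in the control and 26 on day 7 (pooled CPM ratio 47.0, counting interval 7.72 to 1926). The median of the 9 was 3.28, or 1.86 with the 4 genes at 0 in a group set to their bound of 3 counts.

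Among desmosome proteins and filament linkers, 8 of 13 tested rose, 3 fell and 2 did not pass, with a median of 0.92, where 34.5% of all genes were called. With library totals 10 rose and 1 fell, with a median of 1.70, and by DESeq2 5 rose and 3 fell. Ppl (periplakin) went from 3.74 CPM to 48.1 and 42.3 (2.80, SE 0.27, adjusted p = 4.23e-05 by edgeR), Plec (plectin) from 12.5 to 66.3 and 85.0, and the desmosomal cadherin Dsg2 from 17.8 to 88.4 and 82.0. Dst (dystonin), a large linker, fell from 275 CPM to 99.1 and 93.5 (-2.30, SE 0.20, adjusted p = 2.45e-05 by edgeR). Pkp4 and the microtubule-actin linker Macf1 were called lower with TMM factors, RLE size factors and DESeq2, and not with library totals. Pkp4 was at 183 CPM in the control and 156 and 145 on day 7 (-1.08 with TMM factors, -0.29 and not called with library totals). Macf1 was at 137 CPM in the control and 155 and 111 on day 7, so 1 day 7 library lay above the control (-0.84 with TMM factors, -0.05 and not called with library totals). Of 7 hemidesmosome genes, 5 rose, 1 fell and 1 did not pass, with a median of 1.78, again against 34.5% of all genes called. With library totals 6 rose and 0 fell, and by DESeq2 5 rose and 0 fell. Itgb4, the integrin of hemidesmosomes, went from 1.83 CPM to 18.8 and 16.1 (2.45, SE 0.33). Lama3 was at 5.89 CPM in the control and 3.77 and 2.66 on day 7 (-1.71 with TMM factors, -0.93 and not called with library totals, and not called by DESeq2).

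Other intermediate filaments also moved. Of 10 tested, 5 rose, 1 fell and 4 did not pass, with a median of 1.21, beside 34.5% of all genes called. With library totals 6 rose and 0 fell, and by DESeq2 4 rose and 0 fell. Vim (vimentin), the filament of mesenchymal cells that injured tubule cells can also make, went from 2.59 CPM in the control to 89.5 and 132 on day 7 (4.64, SE 0.41, adjusted p = 2.62e-05 by edgeR) and was at 6.90 and 4.43 on day 14. Nes (nestin) went from 2.52 CPM to 43.9 and 55.8 (3.53, SE 0.29). Of 12 keratin-binding partners, 4 rose and 8 did not pass, with a median of 0.93, a count near the 34.5% of all genes called. With library totals 9 rose, and by DESeq2 3. Among those that rose was Sfn (stratifin, which binds phosphorylated keratins), from 1.94 CPM to 59.8 and 41.2 (3.89, SE 0.42, adjusted p = 7.53e-05 by edgeR). Endothelial cells also make Vim and Nes, and myeloid cells also make Vim. The myeloid markers given above went from 9.85 CPM in control tubule cells to 257 and 92.5 on day 7. Over 9 endothelial markers, all counted in every library, the summed level in tubule cells was 21.7 CPM in the control and 68.5 and 33.1 on day 7, and the part of either cell type in these changes was not tested.

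On day 14 against the control, 0 of 9 other keratins, 3 of 13 desmosome and linker genes (1 higher, 2 lower), 1 of 10 other filament genes (lower), 0 of 12 binding partners and 0 of 7 hemidesmosome genes were called by edgeR, where 7.72% of all genes were called. Against day 7, day 14 was lower for 3, 6, 6, 8 and 6 genes of these lists in the same order, and higher for 1, 2, 0, 0 and 0, where 46.4% of all genes were called and 22% were called lower.

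The genes most like each keratin across the 10 tubule sums were found among 4500 genes (4501 for Krt19 and Krt20) by Pearson's r of log2(CPM + 1). All r are descriptions over libraries that share the same days. Krt7 was most like Cdh1 (E-cadherin, r = 0.983), Ehf and Brd3. Krt8 was most like Lcn2 (the secreted injury marker NGAL, r = 0.984), which stood at 3.09 CPM in the control, 1409 on day 1, 442 on day 2, 764 on day 4 and 1425 and 1340 on day 7. Tbcb and Car2 followed. Krt18 was most like Serf1, Cdkn1a (the cell cycle inhibitor p21) and St14 (matriptase, a membrane protease), with r of 0.989, 0.988 and 0.987. Krt19 was most like Rasd1, St14 and Cldn3, a tight junction claudin, and Krt20 like Slc40a1 (the iron exporter ferroportin), Hn1 and Col18a1. Their r lay between 0.985 and 0.989.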

How the data were processed

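Per the labels' protocols, the authors made Drop-seq libraries and prepared the 3′ ends with a modified Nextera XT protocol. The submitters' processing notes name Bowtie2 2.2.7 and mm10. The counting tool, filters and use of strand are not given in the sources used here. The deposited values are counts, whole numbers per gene and barcode, read as UMIs. The tables hold barcodes with at least 500 genes, or 300 in day 11. No libraries shared more than 4 barcodes.

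A cell was kept at 500 or more UMIs, 500 or more genes and a mitochondrial share of no more than 50% (52797 cells). Cells in which no class led and a non-tubule class reached its minimum were set aside as possible doublets (2.05%), 3.88% had no class, and no doublet caller was run. Sums per library and class needed 20 cells and were compared with edgeR 4.0.16 (R 4.3.3, TMM, filterByExpr), with DESeq2 1.42.0 and scaling by library totals alone as alternatives. The fitted log2 changes use the TMM factors, and printed CPM do not. The fit was tested on simulated data. Paired levels used exact permutation tests (scipy 1.17.1) on log2(CPM + 1). Intervals and floors (3 counts) cover counting error only.

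The members and lists were chosen with earlier results of these data known. Named genes were the 5 keratins, the 3 called genes per list and direction with the largest day 7 change, some of them given by count only, and the 3 genes most like each keratin.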

Additional observations from a re-analysis of the deposited data

Results flagged for a closer look

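In 8 of 20 cases tested the change of a keratin differed between segments of the same libraries by a test of the difference itself (edgeR's quasi-likelihood interaction, log2 scale), where 18.9% to 23.2% of all genes were called in the 4 interactions, and the 1 of 5 keratins called for thick limb minus proximal cells on day 7 is near that share. On day 7 against the control, thick limb minus proximal cells gave -1.51 for Krt18, and principal minus proximal cells gave -3.96 for Krt18 and -0.55 for Krt8. On day 14 against day 7, thick limb minus proximal cells gave 0.76 for Krt7 and -1.29 for Krt8. On the same days principal minus proximal cells gave 2.85 for Krt18, 1.27 for Krt7 and -0.90 for Krt8. The proximal level of Krt7 was close to that of non-epithelial cells, which fell from 59.0 and 32.3 CPM on day 7 to 10.99 and 9.78 CPM on day 14, and its part in the Krt7 differences was not tested. The proximal Krt18 level in the control, 1.60 CPM, rests on 26 UMIs and lay below that of non-epithelial cells. In the first day 7 library it lay near that of non-epithelial cells, and the part of free RNA in the Krt18 differences was not tested.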

How the results depend on the processing

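In tubule cells together, the counts of keratins called on day 7 against the control, and on days 11 and 14 against day 7, stayed at 5 under every alternative run. No called change reversed its direction. With single libraries left out, the count ranged from 1 to 3 on day 11 against the control, 0 to 1 on day 14 against the control and 1 to 2 on day 14 against day 11. Within segments, leaving out libraries gave 0 to 1 for proximal cells on day 14 against the control and against day 11, 1 to 2 for thick limb cells on day 14 against day 11, 0 to 1 for distal cells on days 11 and 14 against the control, 0 to 2 and 0 to 3 for principal cells on day 11 against the control and day 14 against day 11, 0 to 3, 0 to 3 and 0 to 2 for intercalated cells on day 11 against the control, day 11 against day 7 and day 14 against day 11, and 0 to 1 for cells with no segment. With only the 2 groups compared in the fit, the count on day 14 against the control was 1 in tubule cells and 1 in principal cells, and on day 11 against the control it was 2 in principal and 0 in intercalated cells. In that fit it was 0 in intercalated cells on day 14 against day 11 and 1 in cells with no segment. With DESeq2 the counts were 0 in distal cells on day 11 against the control, and 1 and 0 in intercalated cells on day 11 against day 7 and day 14 against day 11. DESeq2 gave no adjusted p for Krt18 in distal cells on day 14, for Krt19 in intercalated cells on day 11 against the control and on day 14 against day 7, or for Krt20 in cells with no segment, so no count is given there. Without the filter on low counts there were 2 in proximal cells on day 14 against day 11, 0 in distal cells on day 11 against the control, and 1 difference between principal and proximal cells on day 7. With a gate of 5 UMIs there were 0 in proximal cells on day 14 against day 11, 1 in cells with no segment, and 1 neighbouring pair of Krt18 past the threshold in place of 2. With no cells set aside there were 2 in proximal cells on day 14 against day 11, 0 in distal cells on day 14 against the control, 2 in principal and 1 in intercalated cells on day 11 against the control, and 0 in intercalated cells on day 14 against day 11. With mitochondrial shares up to 25% there were 0 in distal cells on days 11 and 14 against the control and 0 in intercalated cells on day 11 against the control and day 14 against day 11. With library totals in place of TMM factors, an alternative added after the data were seen, there were 5 in thick limb cells on day 11 and on day 14 against day 7. With cells thinned to 1000 UMIs, the Havcr1 differences of Krt7 and Krt19 were -1.98 and -1.76 in a design of 5 libraries that cannot pass, and the value of Krt19 over 10 libraries, -1.50, rests on 5 libraries without the depth to show a direction. In all these cases but the last the cause was not tested. The interaction of cells with no segment could not be fitted.

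The number of all genes called in tubule cells moved more than the keratins: 1263 on day 14 against the control became 222 to 2454 with single libraries left out, 3318 with only the 2 groups compared and 2391 without the filter on low counts, 2909 on day 11 became 616 to 4287, and 1961 on day 14 against day 11 became 420 to 2779 (3148 with all cells summed), while on day 7 against the control 5646 became 4164 to 6422 under all alternatives but library totals. On day 7 against the control the genes called higher became 1 in place of 4 other keratins and 5 in place of 8 desmosome and linker genes with DESeq2, and 9 in place of 4 binding partners with library totals. In proximal cells 1332 on day 14 against the control became 301 to 2540 over all alternatives. With library totals 8941 genes were called in tubule, 4831 in thick limb and 627 in intercalated cells on day 7 against the control, 5276 and 5300 in thick limb cells on days 11 and 14 against day 7, 2662 in principal cells on day 14 against day 7 (1757 with TMM factors) and 141 in intercalated cells on day 14 against day 11 (93 with TMM factors). DESeq2 called fewer in the smaller classes: 1061 in place of 2630 for the thick limb, 368 in place of 981 for principal and 47 in place of 302 for intercalated cells, on day 7 against the control.

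The labels do not say whether replicate numbers pair the libraries, and the correlations that follow do not settle it. Deviations of libraries with the same number correlated at 0.393 (days 7 and 11), -0.00779 (days 7 and 14) and -0.0897 (days 11 and 14) over 4411 genes. With the replicate number as a block, 5, 5 and 2 keratins were called in tubule cells on day 11 against day 7, day 14 against day 7 and day 14 against day 11, as without it, and 3 in place of 2 in thick limb cells on day 14 against day 11.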
